A study of Mus musculus with 6 samples.

Results

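The genes described here encode 7 proteins that coat, build or mark lipid droplets: Plin2, Plin3, Hilpda, Fitm2, Bscl2, Aup1 and Spg20. They were chosen by symbol, and all 7 are among the 14148 genes of the deposited table. They were measured in microglia, the resident macrophages of the brain, from the hippocampi of C57BL/6 male mice aged 18 months. BODIPY, a dye for neutral lipid, was used to sort live CD11b+CD45lo cells into a lipid droplet-high (LD-high, BODIPYhi) and a lipid droplet-low (LD-low, BODIPYlo) fraction, with 3 libraries each. Each sample pooled the hippocampi of 3 mice and held about 10000 sorted cells, and both fractions came from aged animals only, with no young mice for comparison. No source says that the pools hold different mice, so the p-values may reflect technical spread only.

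A lipid droplet is a core of triacylglycerol and sterol ester that buds from the endoplasmic reticulum under a single layer of phospholipid. Seipin (Bscl2) and the fat storage-inducing protein Fitm2 act at the site of budding, and perilipins such as Plin2 and Plin3 then cover the surface and limit the access of lipases. Hilpda restrains the lipase Pnpla2 (ATGL), while Aup1 and spartin (Spg20) bring ubiquitin-conjugating enzymes and ubiquitin ligases to the droplet. In many cells the Plin2 protein is stable only while it is bound to a droplet, so its amount and that of its transcript can differ.

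The upstream sequences of both perilipin genes are shown because they are the only perilipin genes measured here and their transcripts differed in level and spread. Each is the 250 bases before the RefSeq transcription start (table build GRCm38.p6), 5′ to 3′ on the gene's strand. Each matched 1 place in NCBIM37 (mm9), the build of the coordinates given here: Plin2 at chr4:86315964-86316213 and Plin3 at chr17:56429935-56430184, both on the minus strand. Capitals mark matches, on either strand, to 5 motifs. These were ACGTG, the core of the hypoxia response element, AGGTCA, an element of nuclear receptors, the promoter box CCAAT, the GC box GGGCGG and the TATA box TATAAA. Positions count back from -1, the base before the start.
Plin2: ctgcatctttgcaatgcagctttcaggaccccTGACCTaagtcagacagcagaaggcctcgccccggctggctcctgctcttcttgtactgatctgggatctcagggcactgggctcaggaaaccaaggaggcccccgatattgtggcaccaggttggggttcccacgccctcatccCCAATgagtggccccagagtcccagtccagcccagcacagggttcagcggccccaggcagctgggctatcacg
Plin3: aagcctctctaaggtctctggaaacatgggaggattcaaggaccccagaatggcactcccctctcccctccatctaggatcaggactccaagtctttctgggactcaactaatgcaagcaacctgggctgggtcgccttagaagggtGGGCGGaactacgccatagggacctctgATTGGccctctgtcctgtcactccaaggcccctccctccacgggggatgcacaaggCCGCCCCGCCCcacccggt
Hilpda: gatggccagcggACGTGccccagggcgag
The Plin2 window held the nuclear receptor element on the opposite strand with its first base at -218, and a CCAAT box at -73. The Plin3 window held 1 CCAAT box at -75 on the opposite strand and GC boxes at -103, -19 and -14, the last pair sharing a base. Neither window held ACGTG or TATAAA. Of 32851 such windows of 250 bases in the RefSeq table, 16.6% held ACGTG, 14.0% AGGTCA, 33.8% CCAAT, 32.7% GGGCGG and 12.4% TATAAA. Hilpda has 2 listed starts, and only the window of the second held ACGTG, at -43 from that start. The 29 bases around it (chr6:29222571-29222599, plus strand) are shown because Hilpda is known as a hypoxia-induced gene. These matches describe letters and not bound sites.

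The libraries held between 15895576 and 38489448 reads in genes, and Pearson's r between libraries of 1 group was 0.982 to 0.989 across genes, which are not independent replicates. With limma on log2(normalized count + 1) and Benjamini-Hochberg adjustment, 390 of 11624 tested genes had an adjusted p under 0.05, 178 higher and 212 lower in LD-high libraries; with equal totals the split was 118 and 233. The 12 microglial markers, led by the receptor gene Csf1r, summed to between 1604420 and 1821420 normalized counts in LD-high and between 1640340 and 1908090 in LD-low libraries. All 7 neutrophil markers in the table (of 11 listed) were at 0 reads in LD-high libraries and summed to between 1222 and 4563 in LD-low libraries, with the highest sum in LD-low replicate 3. The 10 choroid plexus markers (of 10) summed to between 1725 and 5641 in LD-high and between 369 and 1814 in LD-low libraries. The 7 oligodendrocyte markers (of 8) summed to between 5453 and 6013 in LD-high and between 4648 and 4896 in LD-low libraries, and 7 astrocyte markers (of 7, mostly Slc1a3) to between 8180 and 8914 in LD-high and between 6567 and 7822 in LD-low libraries. Apart from Slc1a3 the astrocyte markers did not share a direction. Gfap, too low to be tested, averaged 5.27 in LD-high and 14.4 in LD-low libraries, and Clu averaged 161 and 59.6. The 10 border-associated macrophage and monocyte markers (of 10) summed to between 292 and 501 in LD-high and between 385 and 702 in LD-low libraries. The part of these marker differences in the results below was not tested, and in sorted pools fewer cells of a type and less RNA per cell cannot be told apart.

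None of the 7 droplet protein genes passed the test between LD-high and LD-low microglia, where 3.36% of all tested genes did. All 7 were above the filter on low values. Their log2 changes lay between -0.15 and 0.50 with a median of 0.03, against a median of -0.01 over all tested genes. In simulated data the fit called 38% of genes with a true log2 change of 0.5 in size, so such changes can be missed. At an unadjusted p under 0.05 there were 3 members (Plin3, Spg20 and Aup1), where 19.8% of all tested genes reached it; edgeR called 0 of the 7, against 3.24% of all genes, and DESeq2 called 1, Plin3, against 6.27%. For 2 of the 7 the fractions were fully apart, Plin3 with LD-high above and Aup1 with LD-high below. Over all tested genes this held for 24.3%, with LD-high above in 12.7% and below in 11.7%, so 2 of 7 is no result about these genes. In the plot of values by library, Plin3 and Aup1 are the panels where the groups part.

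**Figure D1:**
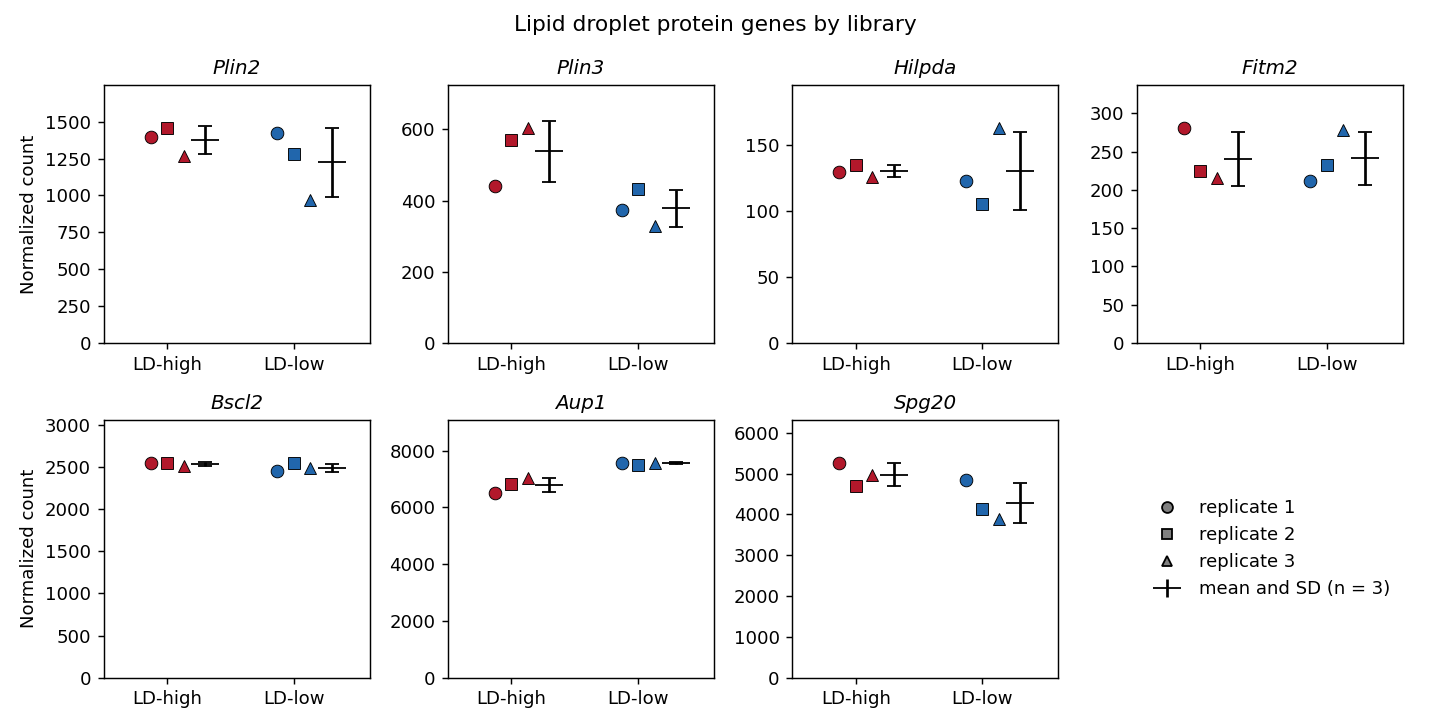
Normalized count of each of the 7 genes (y axis, from 0) in the 3 LD-high (red) and 3 LD-low (blue) libraries. Symbols mark the replicate number and the bar gives the mean and SD (n = 3). The LD-high points of Plin3 (440 to 604) lie above its LD-low points (328 to 433), those of Aup1 (6522 to 7019) lie below (7502 to 7572), and the groups overlap in the other panels.

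Plin2, the coat protein most used to mark droplets outside fat tissue (chr4:86294290-86315964), was measured well but did not separate the fractions. It had 1398, 1458 and 1271 normalized counts in LD-high libraries (replicates 1, 2 and 3) and 1426, 1283 and 968 in LD-low libraries. The LD-low libraries spread more widely, and LD-low replicate 1 lay above 2 of the 3 LD-high libraries. The means were 1376 ± 95.7 in LD-high and 1226 ± 234 in LD-low libraries (SD, n = 3 each). The log2 change was 0.18 ± 0.12 (SE) with a limma adjusted p of 0.417. The 95% confidence interval of the fold ran from 0.951 to 1.35. The lowest Plin2 value was in LD-low replicate 3, and without that library the log2 change was 0.02 (adjusted p 0.941). That library also had the most neutrophil marker reads, and a link between these was not tested. Each Plin2 value rests on 761 to 2032 reads.

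Plin3 (chr17:56418385-56429934), a perilipin that is held in the cytosol and moves onto newly formed droplets, had the largest log2 change of the 7. It had 440, 570 and 604 normalized counts in LD-high libraries and 374, 433 and 328 in LD-low libraries. Every LD-high library lay above every LD-low library, by a narrow margin between LD-high replicate 1 and LD-low replicate 2. The means were 538 ± 86.6 in LD-high and 378 ± 52.7 in LD-low libraries (SD, n = 3 each). The log2 change was 0.50 ± 0.14 (SE), a fold of 1.42 with a 95% interval of 1.15 to 1.75, and the limma adjusted p was 0.0678. DESeq2 gave an adjusted p of 0.0281 and edgeR one of 0.0712. The fit without LD-high replicate 1 gave a limma adjusted p of 0.0337, and the other 5 fits that left out 1 library gave values from 0.0899 to 0.237. LD-low replicate 3, with the most neutrophil marker reads, had the least Plin3, and without it the log2 change was 0.41. A link of Plin3 to the neutrophil markers was not tested.

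The balance of the perilipins was followed as the ratio of Plin3 to Plin2 within each library, which no scaling between libraries can alter. It was 0.315, 0.391 and 0.476 in LD-high libraries and 0.262, 0.338 and 0.339 in LD-low libraries. LD-high replicate 1 lay below 2 LD-low libraries, so the groups overlap. The mean ratio was 0.394 ± 0.0805 in LD-high and 0.313 ± 0.0438 in LD-low libraries (SD, n = 3 each). A 2-sided exact permutation test of the log2 ratio gave a p of 0.300, where 3 against 3 cannot go below 0.100. No other perilipin was analysed here: Plin1, Plin4 and Plin5 have no value. The genes whose log2 values ran most like those of Plin2 over the 6 libraries, among 10199 genes with a mean of at least 50, were Pex2, Cstf2t and A530054K11Rik (Pearson's r 0.9997, 0.985 and 0.984). For Plin3 they were Eif2s1, Cyb5r4 and Mrpl45 (r 0.993, 0.991 and 0.990). With 6 points and so many genes these values describe likeness only, and the points share library and group.

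Both genes for the budding of droplets had log2 changes near 0. Bscl2, the gene of seipin (chr19:8911957-8923173), had 2551, 2547 and 2514 normalized counts in LD-high libraries and 2452, 2544 and 2483 in LD-low libraries. All 6 libraries lay within a narrow band and the groups overlap. The means were 2537 ± 19.9 in LD-high and 2493 ± 47.0 in LD-low libraries (SD, n = 3 each), the log2 change was 0.03 ± 0.07 (SE, limma adjusted p 0.880), and the 95% interval allows a fold between 0.921 and 1.12. Of its merged exons, 6.75% lie across from Gng3 on the opposite strand, and Gng3 had 2.23 to 4.48 normalized counts in LD-high and 3.25 to 4.21 in LD-low libraries.

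Fitm2, which binds triacylglycerol in the endoplasmic reticulum (chr2:163292115-163298365), had 281, 224 and 215 normalized counts in LD-high libraries and 211, 233 and 279 in LD-low libraries. The highest and lowest values of both groups were alike, and the groups overlap. The log2 change was -0.01 ± 0.16 (SE, limma adjusted p 0.990), and the 95% interval allows a fold between 0.783 and 1.27. The values rest on 129 to 377 reads. The related gene Fitm1, known from muscle, had 4, 0 and 0 reads in LD-high and 1, 0 and 1 in LD-low libraries and was not tested.

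Hilpda (chr6:29222488-29225446), the small inhibitor of Pnpla2, had 130, 134 and 125 normalized counts in LD-high libraries and 123, 105 and 163 in LD-low libraries. LD-low replicate 3 was the highest and LD-low replicate 2 the lowest of all 6, with the LD-high libraries between. The means were 130 ± 4.58 in LD-high and 130 ± 29.5 in LD-low libraries (SD, n = 3 each). The log2 change was 0.02 ± 0.20 (SE, limma adjusted p 0.973), and its sign, like those of Fitm2 and Bscl2, changed with the processing. At 75 to 175 reads per library Hilpda had the widest interval of the 7, a fold between 0.750 and 1.37.

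Aup1 and Spg20, the genes of the ubiquitin-recruiting proteins, had the highest read counts and differed in opposite directions, neither past the test. Aup1 (chr6:83004647-83007674) had 6522, 6806 and 7019 normalized counts in LD-high libraries and 7565, 7502 and 7572 in LD-low libraries. The LD-low libraries lay close together and above all LD-high libraries. The means were 6782 ± 250 in LD-high and 7546 ± 38.3 in LD-low libraries (SD, n = 3 each). The log2 change was -0.15 ± 0.06 (SE) with a limma adjusted p of 0.186 and a fold of 0.898 (95% interval 0.819 to 0.985). Exons of Htra2 on the opposite strand cover 30.7% of the Aup1 exons, and the library kit does not mark strand, so reads there cannot be assigned between these genes. Htra2 had 1054, 1508 and 1382 normalized counts in LD-high libraries and 1405, 1543 and 1592 in LD-low libraries, a log2 change of -0.22 ± 0.11 (adjusted p 0.310).

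Spg20 (chr3:54916030-54941244), the gene of spartin, had 5268, 4691 and 4969 normalized counts in LD-high libraries and 4835, 4145 and 3888 in LD-low libraries. The highest LD-low library, replicate 1, lay above the lowest LD-high library. The means were 4976 ± 289 in LD-high and 4289 ± 489 in LD-low libraries (SD, n = 3 each). The log2 change was 0.22 ± 0.08 (SE) with a limma adjusted p of 0.161 and a fold of 1.16 (95% interval 1.03 to 1.31). Without LD-low replicate 1 the log2 change was 0.31 and the adjusted p 0.0416. Without LD-low replicate 3, again the lowest library, the log2 change was 0.15 (adjusted p 0.430).

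**Figure D2:**
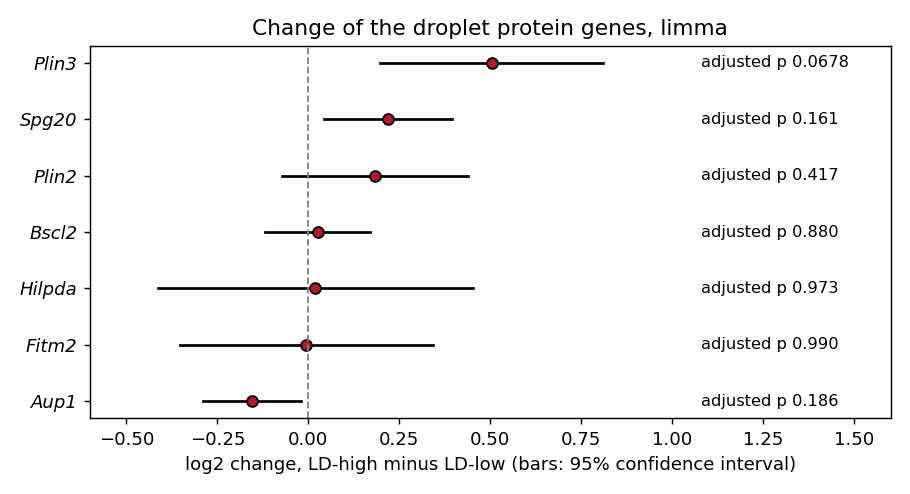
Log2 change of each gene, LD-high minus LD-low (x axis), with its 95% confidence interval and limma adjusted p. The intervals of Plin3 and Spg20 lie above 0 and that of Aup1 below, while none of the adjusted p values is under 0.05.

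**Figure D3:**
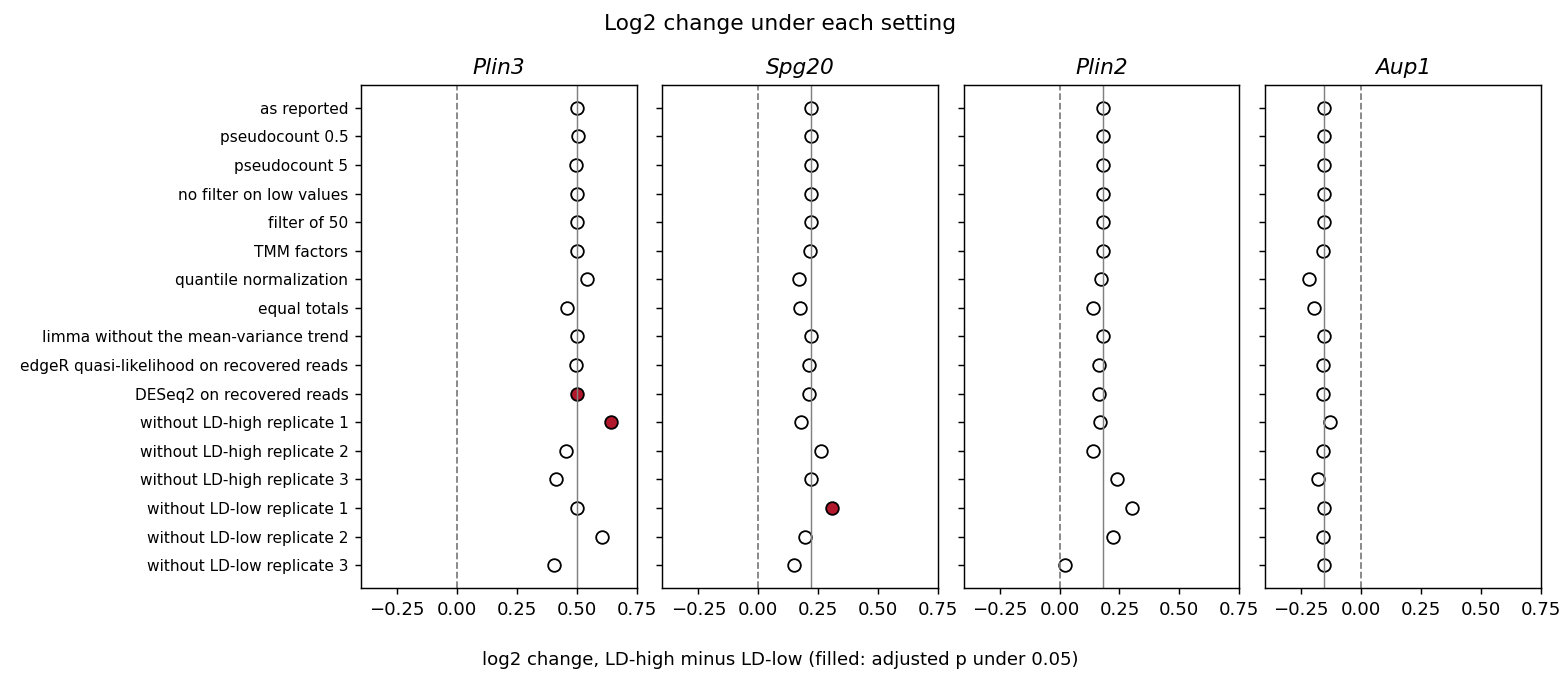
Log2 change (x axis) of Plin3, Spg20, Plin2 and Aup1 under the settings named on the y axis, which do not include the replicate number as a block; filled points have an adjusted p under 0.05, the grey line is the value as reported and the dashed line is 0. Plin3 ran from 0.41 to 0.64 over the fits that left out 1 library, Spg20 from 0.15 to 0.31, Plin2 from 0.02 to 0.30 and Aup1 from -0.18 to -0.13.

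In the settings plotted for these 4 genes, Plin3, Spg20 and Plin2 stayed above 0 and Aup1 below, and the filled points in that plot are those of Plin3 (DESeq2, and without LD-high replicate 1) and Spg20 (without LD-low replicate 1).

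Levels can be compared between genes only per length, here normalized counts per kb of merged exons. Aup1 was the highest, with 4494 ± 165 per kb in LD-high and 5001 ± 25.4 in LD-low libraries (SD, n = 3 each). It lay above 98.0% of the 11254 tested genes with a length in LD-high and 98.3% in LD-low libraries. Spg20 followed with 928 ± 53.8 per kb in LD-high and 800 ± 91.3 in LD-low libraries. Bscl2 had 430 ± 3.38 per kb in LD-high and 423 ± 7.97 in LD-low libraries, and Plin2 had 392 ± 27.3 in LD-high and 349 ± 66.7 in LD-low libraries. Plin3 had 249 ± 40.1 per kb in LD-high and 175 ± 24.4 in LD-low libraries. Hilpda had 118 ± 4.16 per kb in LD-high and 118 ± 26.7 in LD-low libraries, and Fitm2 was the lowest with 60.5 ± 8.96 in LD-high and 60.7 ± 8.68 in LD-low libraries. Within each group no neighbours in this order overlap, but the order in the middle depends on the length used. With the longest coding transcript, a length chosen after seeing the data, Bscl2 had 1293 ± 10.2 per kb and Spg20 1250 ± 72.5 in LD-high libraries, which do not differ beyond their spread, and 1271 ± 24.0 and 1077 ± 123 in LD-low libraries. On that length Plin2 had 729 ± 50.7 per kb in LD-high and 649 ± 124 in LD-low libraries. Aup1 at the top and Plin3, Hilpda and Fitm2 at the bottom kept their places.

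**Figure D4:**
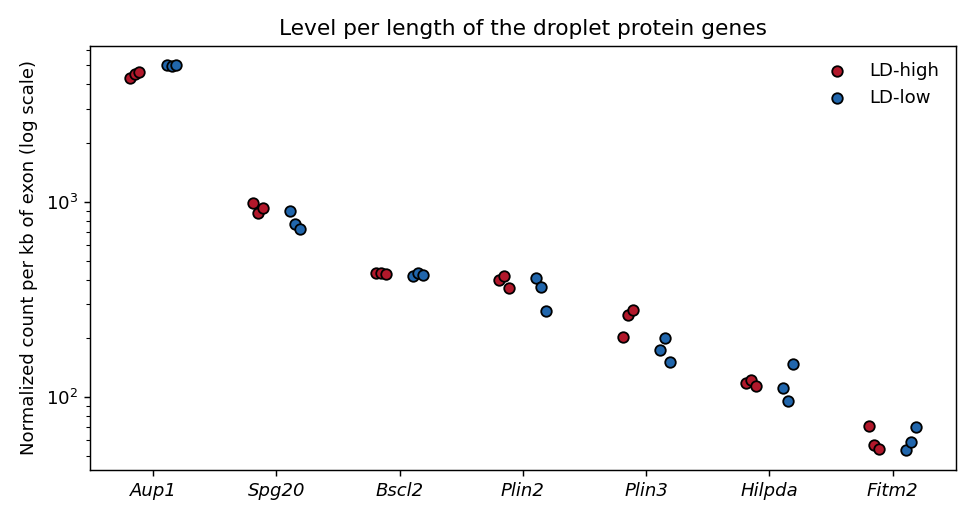
Normalized count per kb of merged exons (y axis, log scale) of the 7 genes in LD-high (red) and LD-low (blue) libraries, 1 point a library. The genes run from Aup1 (4494 per kb on average in LD-high libraries) down to Fitm2 (60.5), a span far wider than any difference between the fractions. Neighbours can lie closer than that: Bscl2 and Plin2 averaged 430 and 392 in LD-high libraries, while Plin3 averaged 249 in LD-high and 175 in LD-low libraries.

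Other genes of the droplet were counted by list, and 1 of the 69 tested genes on 6 lists passed, where 3.36% of all tested genes did. Over all tested genes, 19.8% had an unadjusted p under 0.05 and 48.7% had a log2 change above 0. For the counts by list below, edgeR called 3.24% and DESeq2 6.27% of all tested genes. Of 12 other surface protein genes in the table, 11 were tested and none passed in limma, with 4 at an unadjusted p under 0.05, against 19.8% of all tested genes, 0 called by edgeR and 1 by DESeq2 (Rab18). Their median log2 change was -0.01. Rab18, a small GTPase of droplets, had 3113, 3095 and 2868 normalized counts in LD-high libraries and 2555, 2269 and 2702 in LD-low libraries. The groups did not overlap, and the log2 change was 0.27 ± 0.08 (adjusted p 0.0720). The gene listed as 1110057K04Rik, named Ldah in RefSeq for a droplet-associated hydrolase, had a log2 change of 0.24 ± 0.07 (adjusted p 0.0863). Vps13a, a lipid transfer protein at membrane contacts, had one of -0.59 ± 0.24 (adjusted p 0.180). It had 99.8, 98.5 and 194 normalized counts in LD-high libraries and 180, 188 and 193 in LD-low libraries. The groups overlap, with LD-high replicate 3 the highest of all 6. Of the fits that left out 1 library, only that without LD-high replicate 3 passed (0.0497), and the highest adjusted p was 0.392. Cidea, Cideb and Cidec, whose products fuse droplets, were not analysed here.

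Genes listed for neutral lipid synthesis, not all of them particular to it, had a median log2 change of 0.13. Of 13 tested members 9 lay above 0 and 4 below, against 48.7% of all tested genes above 0. None passed in limma; 2 had an unadjusted p under 0.05, against 19.8% of all tested genes, and edgeR and DESeq2 called 0. Agpat3, an acyltransferase of phospholipid and glycerolipid synthesis, had 4227 ± 242 normalized counts in LD-high and 3612 ± 279 in LD-low libraries (SD, n = 3 each), and its log2 change was 0.23 ± 0.08 (adjusted p 0.113). The sterol esterifying enzyme Soat1 and the first acyltransferase of the glycerolipid pathway, Gpam, had changes in log2 of 0.23 ± 0.09 and 0.19 ± 0.09 (adjusted p 0.196 for Soat1, 0.283 for Gpam). Dgat1 and Dgat2, which complete triacylglycerol, came to -0.15 ± 0.10 and 0.17 ± 0.47 and are named after their values were seen.

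Genes for droplet turnover had a median log2 change of 0.12, and 12 of 13 lay above 0, against 48.7% of all tested genes, with no limma call. At an unadjusted p under 0.05 there were 3, against 19.8% of all tested genes, and edgeR and DESeq2 called 0. The autophagy gene Atg5 and the lysosomal membrane gene Lamp2 had changes in log2 of 0.19 ± 0.07 and 0.18 ± 0.07 (adjusted p 0.180 for Atg5, 0.183 for Lamp2). Abhd5, whose product activates Pnpla2 and is held by perilipins in fat cells, had 785 ± 25.7 normalized counts in LD-high and 660 ± 104 in LD-low libraries (SD, n = 3 each), and its log2 change was 0.26 ± 0.11 (adjusted p 0.215). Pnpla2 itself, named after its value was seen, had 3536, 3004 and 2837 normalized counts in LD-high libraries and 2955, 2935 and 2907 in LD-low libraries, a log2 change of 0.09 ± 0.08.

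Of 13 tested partners of Aup1 in the degradation of endoplasmic reticulum proteins, 11 lay above 0, against 48.7% of all tested genes, with a median log2 change of 0.07, while Aup1 itself lay below 0. None passed in limma, 4 had an unadjusted p under 0.05, against 19.8% of all tested genes, edgeR called 0 and DESeq2 called 1 (Vcp). These 4 did not share a direction. Syvn1 had a log2 change of -0.16 ± 0.07 (adjusted p 0.234), with all LD-high libraries below all LD-low libraries, and the others lay above 0. Vcp, the ATPase that draws proteins from the membrane, had 12468, 11618 and 11991 normalized counts in LD-high libraries and 11106, 10120 and 9681 in LD-low libraries. The groups did not overlap, and the log2 change was 0.22 ± 0.07 (adjusted p 0.0869). Its cofactor Nploc4 and the ligase adaptor Sel1l had changes in log2 of 0.24 ± 0.07 and 0.25 ± 0.10 (adjusted p 0.0924 for Nploc4, 0.175 for Sel1l). Without LD-low replicate 1, Vcp and Sel1l passed (0.0356 and 0.0372). Neither passed when any other library was left out, where the adjusted p reached 0.261 for Vcp and 0.459 for Sel1l.

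Among 10 partners of spartin, 1 rose, where 1.53% of all tested genes did, and the other 9 missed the threshold. The median log2 change of the list was 0.12, and 5 of 10 members had an unadjusted p under 0.05, against 19.8% of all tested genes. These 5 did not share a direction. Ist1 (-0.19 ± 0.07) and Birc6 (-0.36 ± 0.14) had log2 changes below 0 (adjusted p 0.171 each), and the others lay above. The gene that rose was Vps4b, an ATPase that takes apart the ESCRT-III complex of membrane scission. It had 5542, 5687 and 5380 normalized counts in LD-high libraries and 4809, 4637 and 4478 in LD-low libraries. All LD-high libraries lay above all LD-low libraries, with a log2 change of 0.25 ± 0.06 (SE, limma adjusted p 0.0442), and edgeR and DESeq2 called it too. The call was lost without any 1 of LD-high replicates 1, 2 and 3 and LD-low replicates 2 and 3 (highest adjusted p 0.159), with quantile normalization, with equal totals and without a variance trend. The ubiquitin ligase Itch, which spartin binds, came to 0.23 ± 0.07 on the log2 scale (adjusted p 0.0882; DESeq2 0.0449), and its relative Wwp2 to 0.19 ± 0.07 (adjusted p 0.168).

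Transcription factors known to induce coat genes gave a median log2 change of 0.02 over 9 tested members, none of which passed in limma. At an unadjusted p under 0.05 there were 2, against 19.8% of all tested genes, edgeR called 0 and DESeq2 called 1 (Hif1a). Hif1a, the hypoxia factor that induces Hilpda, had 6977, 5744 and 6814 normalized counts in LD-high libraries and 5601, 5344 and 5437 in LD-low libraries. The groups did not overlap, and the log2 change was 0.25 ± 0.08 (adjusted p 0.0891). Of the fits that left out 1 library, only that without LD-high replicate 2 passed (0.0404), and the highest adjusted p was 0.247. Ppard, a fatty acid receptor that induces Plin2, came to -0.36 ± 0.16 on the log2 scale (adjusted p 0.216), and Arnt, the partner of Hif1a, to 0.14 ± 0.07 (adjusted p 0.270). Ppara had 1.30 normalized counts on average in LD-high and 1.44 in LD-low libraries and was not tested.

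**Figure D5:**
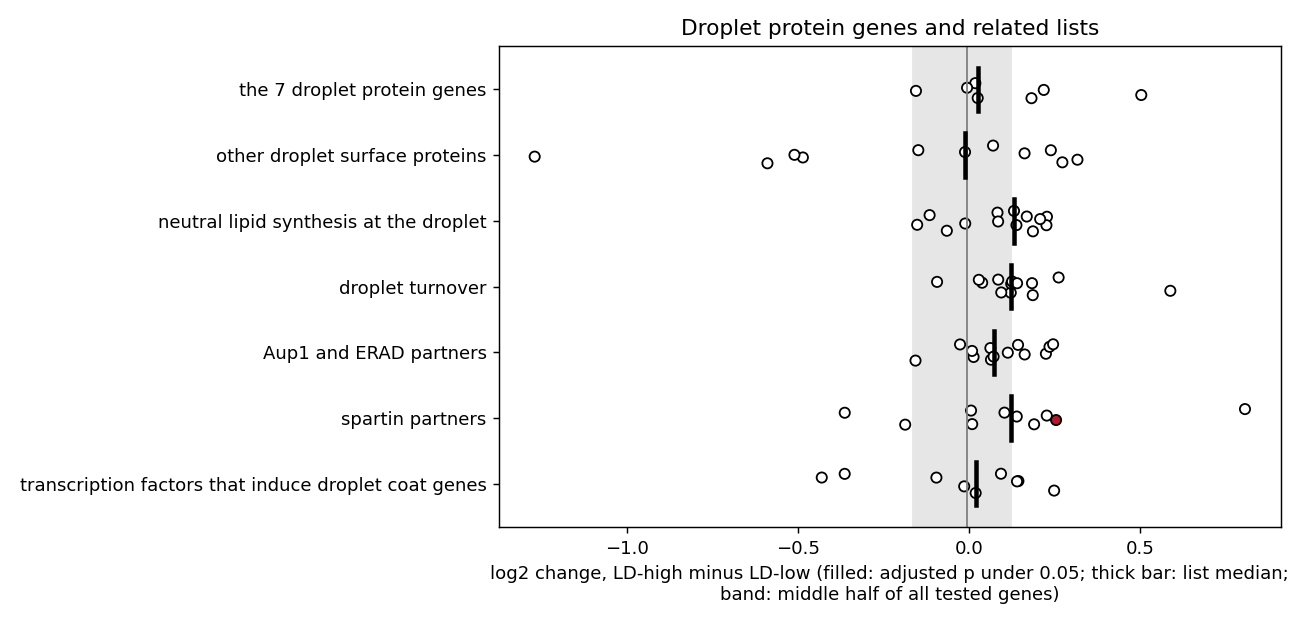
Log2 change, LD-high minus LD-low (x axis), of each tested gene of the 7 droplet protein genes and 6 related lists (rows). Thick bars are medians, the grey line and band are the median and middle range of all tested genes, and filled points have a limma adjusted p under 0.05. The only filled point is Vps4b, and the medians lie between -0.01 and 0.13.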

How the data were processed

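RNA of sorted microglia was copied with a Smart-seq kit and tagmented, per the labels' protocols, which marks no strand. Per the submitters' processing notes, FastQC 0.11.4, STAR 2.5.1b with the mm9 genome and DESeq2 were used, and per the series' design text STAR also made the gene counts. Not given in the sources used here are the annotation, strand setting and gene filter. As deposited, values are a normalized signal: dividing each library by its own smallest step gave whole reads for 100% of the values within 0.01 reads. Each of the 14148 genes had at least 5 reads over the 6 libraries. Symbols, 12949 directly and 690 through RefSeq synonyms (Hilpda among them), were matched to GENCODE vM1 on NCBIM37 (mm9) for coordinates and lengths.

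The fit used limma 3.58.1 (R 4.3.3) with a trended variance, on log2(normalized count + 1), which understates changes of low genes. It took the 11624 genes that reached 10 in 3 or more libraries and left out 2524. P-values were 2-sided with Benjamini-Hochberg adjustment, threshold 0.05. On simulated data the fit called 38% of 100 genes with a true log2 change of 0.5 in size, and 98% of 100 with 1. Of its calls there, 3.5% were unchanged genes. Alternatives were pseudocounts of 0.5 and 5, no filter or 50, TMM factors, quantile normalization, equal totals, no trend, edgeR 4.0.16 and DESeq2 1.42.0 on the recovered reads, the replicate number as a block and each library left out. The genes and lists were chosen with earlier results of these data known. Named are the 7 genes, and from each list those past the threshold and the 3 with the smallest p. Also named are, of the markers with the highest level in their list, Csf1r and Slc1a3, and for each perilipin the 3 genes most like it. Dgat1, Dgat2, Pnpla2, Ppara, Fitm1, Gng3, Htra2, Gfap, Clu, Syvn1, Ist1 and Birc6 were named after their values were seen. Other marker lists, of neurons and endothelium, had 3 genes each in the table, with sums for neurons of 21.7 to 29.0 in LD-high and 9.12 to 27.1 in LD-low libraries and for endothelium of 1301 to 1661 in LD-high and 1089 to 1501 in LD-low libraries. Read numbers cover counting error only, since molecules carry no identifiers.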

Additional observations from a re-analysis of the deposited data

How the results depend on the processing

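Over the alternatives run, Plin2, Plin3, Spg20 and Aup1 kept their signs. Plin3 passed with DESeq2 (0.50, adjusted p 0.0281) and with the replicate number as a block (0.50, adjusted p 0.0227), and Spg20 passed with the block (0.22, adjusted p 0.0335). Among all tested genes, 6.27% passed with DESeq2 and 9.38% with the block. Leaving out 1 library in turn gave log2 changes of 0.41 to 0.64 for Plin3, 0.15 to 0.31 for Spg20, -0.12 to 0.19 for Hilpda and -0.12 to 0.10 for Fitm2. The sign of Hilpda turned with equal totals (-0.024), edgeR (-0.0081) and DESeq2 (-0.0061). That of Fitm2 turned with quantile normalization (0.071), edgeR (0.0036) and DESeq2 (0.0045), and that of Bscl2 with quantile normalization (-0.015) and equal totals (-0.017). The cause was not tested.

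The genes higher and lower in LD-high libraries numbered 178 and 212 in the limma fit, 102 and 135 with quantile normalization, 118 and 233 with equal totals, 1 and 14 without a trend, and 376 and 353 with DESeq2. They were 72 and 159, 69 and 132, and 28 and 62 without LD-high replicates 1, 2 and 3, and 212 and 209, 21 and 61, and 17 and 35 without LD-low replicates 1, 2 and 3. The replicate block gave 560 and 530. With the block, 2 of 11 other surface protein genes, 2 of 13 synthesis genes and 1 of 13 turnover genes passed. So did 3 of 13 partners of Aup1, 2 of 10 partners of spartin and 1 of 9 transcription factors. Over all tested genes the block called 9.38%. DESeq2 called 1 surface protein gene, 1 partner of Aup1, 2 partners of spartin and 1 transcription factor, against 0, 0, 1 and 0 in limma. Over all tested genes DESeq2 called 6.27% and limma 3.36%. The spartin partner count was 0 with quantile normalization, equal totals and no trend. Without 1 library the counts ran from 0 to 1 for surface proteins, 0 to 2 for partners of Aup1, 0 to 1 for partners of spartin and 0 to 1 for transcription factors. The replicate numbers carry no stated pairing: deviations of same-numbered samples correlated at 0.16, 0.13 and 0.06, and each sample correlated best with its own number, which is a hint from the data only. At the deposited depth Hilpda had the fewest reads of the 7 genes, 75 to 175 a library.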
